A study of Mus musculus with 27 samples.

Results

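The genes described here encode the RNA polymerase I, II and III machinery of the mouse liver: the polymerase subunits, the initiation factors of polymerases I and III, and the polymerase III repressor Maf1. They were chosen by name (Polr1, Polr2 and Polr3 genes with a suffix letter from a to m, Maf1, Brf1, Brf2, Rrn3, Taf1a to Taf1d, Gtf3a and Gtf3c1 to Gtf3c6), with the condition that a gene reach a value of 10 or more in 3 or more of the 27 libraries. The names matched 42 of the 45706 genes in the table. All 42 met the condition, so no member was lost to it, and they stand among 15932 genes that met it and were tested.

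RNA polymerase I transcribes the ribosomal RNA precursor, polymerase II transcribes messenger RNA, and polymerase III transcribes transfer RNAs, the small 5S ribosomal RNA and other short RNAs. Each enzyme has its own largest subunits, and a small set of subunits is common to all of them. Polymerase I and III output supplies the ribosome and is known to follow nutrient supply through the kinase mTOR, which acts on Rrn3, the factor that makes polymerase I competent to start, and on Maf1, which binds polymerase III and holds it inactive. Those are controls on proteins, whereas the data here are levels of messenger RNA. The ribosomal and transfer RNAs themselves were not measured.

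Liver RNA was sequenced from wild-type (WT) mice of the strain labelled C57/BLN6 in 9 groups of 3 libraries. All mice had been fasted for 16 h. One group was taken at that point (fasted). Another 4 received food again for 30, 60, 120 or 240 min (refed), and the last 4 were exposed over the same times to caged food, that is, food that the mice could sense and not eat, to separate the perception of food from its intake. The fasted group carries no time of its own, so the time of day and the time since the last meal cannot be told apart from refeeding against it, and the caged food groups are the controls matched in time. The series states biological replicates without naming the animals, so the p-values measure the spread between these libraries.

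Values are normalised read counts per gene, with library totals from 40654573 to 50037562 and an estimated depth of 25.6 to 52.4 M assigned reads. The hepatocyte markers were all 6 detected in every group (summed level 3237120 to 6126149). Pancreatic acinar markers summed to 6355 in refed 30 min replicate 1 and to between 314 and 712 elsewhere, and 1 caged food library of 60 min was high in Kupffer cell markers (33560) and leukocyte markers (2296). The titles and treatment labels of 2 libraries contradict each other: refed 240 min replicate 3 is labelled as caged food and caged food 240 min replicate 1 as refed. Groups follow the titles here, and results at 240 min are also given without these libraries. In whole liver, fewer cells of a type and less RNA per cell cannot be told apart.

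No single motif searched was in most of the promoters, and a few sequences show where those that recur lie. RefSeq windows of GRCm38.p6 reaching from 250 bases before to 50 bases after the annotated start were at hand for 33 of the 42 members. The E-box CACGTG, a palindrome bound by basic helix-loop-helix factors such as MYC and USF, was in the window of 5 of the 33 members (15.2%), against 8.91% of 17492 protein-coding genes. Those 17492 include genes that were not tested here, whereas all members were. Of the tested protein-coding genes with a window, 1175 held the E-box and 9372 did not. The 5 members were Rrn3, Polr2h, Polr3c, Polr3e and Gtf3c6. The core CCGGAAG of ETS family factors, searched on both strands, was in 15 of 33 (45.5%), against 12.9% of protein-coding genes. Among the tested ones, 1932 held it and 8615 did not. By contrast, the palindromic motif of the factor NRF1 was in 0 of 33 (1.47% of protein-coding genes) and TATAAA in 3 of 33 (9.09%, against 14.8%). Among the tested genes, 229 held the NRF1 motif and 10318 did not, and 994 held TATAAA and 9553 did not. None of these motifs contains another, and a match is a description of letters, not evidence of a bound factor.

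The upstream part of the Rrn3 window is shown because Rrn3 was highest at a single time (60 min of refeeding) and its window holds the E-box in 2 places. It covers chr16:13780449-13780698 on the plus strand of GRCm38.p6, directly before the RefSeq start, written 5′ to 3′ with both E-boxes in capitals. They begin 215 and 48 bases before the start.
Rrn3: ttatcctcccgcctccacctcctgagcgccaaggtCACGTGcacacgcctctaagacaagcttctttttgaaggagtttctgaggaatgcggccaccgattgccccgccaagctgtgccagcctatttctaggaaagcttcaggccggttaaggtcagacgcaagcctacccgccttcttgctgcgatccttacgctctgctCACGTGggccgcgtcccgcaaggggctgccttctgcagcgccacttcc

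Stretches of 60 bases show the ETS core in capitals close to the start of 4 members, with Polr1c and Taf1c among those that later rose on refeeding and Gtf3c2 and Polr3g among those that did not pass the test. They lie at chr17:46248055-46248114 (Polr1c), chr8:119605223-119605282 (Taf1c), chr5:31180145-31180204 (Gtf3c2) and chr13:81711014-81711073 (Polr3g), all read from the minus strand. The core begins 42, 27, 21 and 29 bases before the RefSeq start, in the forward sense in Polr1c and as its reverse complement in the others.
Polr1c: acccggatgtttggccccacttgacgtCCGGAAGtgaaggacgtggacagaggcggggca
Taf1c: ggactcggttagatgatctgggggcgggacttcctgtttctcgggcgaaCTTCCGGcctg
Gtf3c2: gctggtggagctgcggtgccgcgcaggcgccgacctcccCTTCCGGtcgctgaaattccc
Polr3g: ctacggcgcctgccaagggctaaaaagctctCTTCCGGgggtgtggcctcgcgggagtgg
As a description with no test, 7 of the 15 holders of the ETS core and 10 of the 18 members without it were called in refed against fasted livers at 1 or more times. Of the 5 members with an E-box, 4 were called, and of the 28 without it, 13 were. Over all tested protein-coding genes with a window, 36.0% with the ETS core and 32.4% without it were called, and 36.4% with the E-box and 32.6% without it.

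In fasted livers the members differed widely in level per exon length. The highest was Polr2m, which encodes a protein that associates with polymerase II, at 1152 ± 16.6 normalised read counts per kb of exon (mean ± SD, n = 3, as for all levels below). Polr2i (554 ± 28.1), Maf1 (526 ± 24.9) and Polr2b (519 ± 22.1) followed, and these neighbours in the order overlap within their spread. Polr2a, the largest subunit of polymerase II and bearer of its C-terminal repeat domain, stood at 477 ± 15.0. The largest subunits of the other enzymes were lower, with Polr3a at 207 ± 18.7 and Polr1a at 126 ± 4.40. At the lower end were Polr2k (39 ± 9.25), Taf1c (27 ± 3.04) and Taf1d (23.7 ± 0.296). This scale has limits for some members: the exons of Taf1d include those of small nucleolar RNAs it hosts (11.5% of its exon bases), and Polr2k held only 6 to 31 normalised read counts in any library. Exon length is the union of all annotated exons, 8949 bases for Taf1d, 11871 for Polr1a and 5828 for Polr3a. The order depends on it. Before division Polr1a (1499) exceeded Polr3a (1207), and Taf1d (212) exceeded Taf1c (94.3). Of the exon bases of Polr2i, 26.8% overlap Tbcb on the opposite strand.

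**Figure D1:**
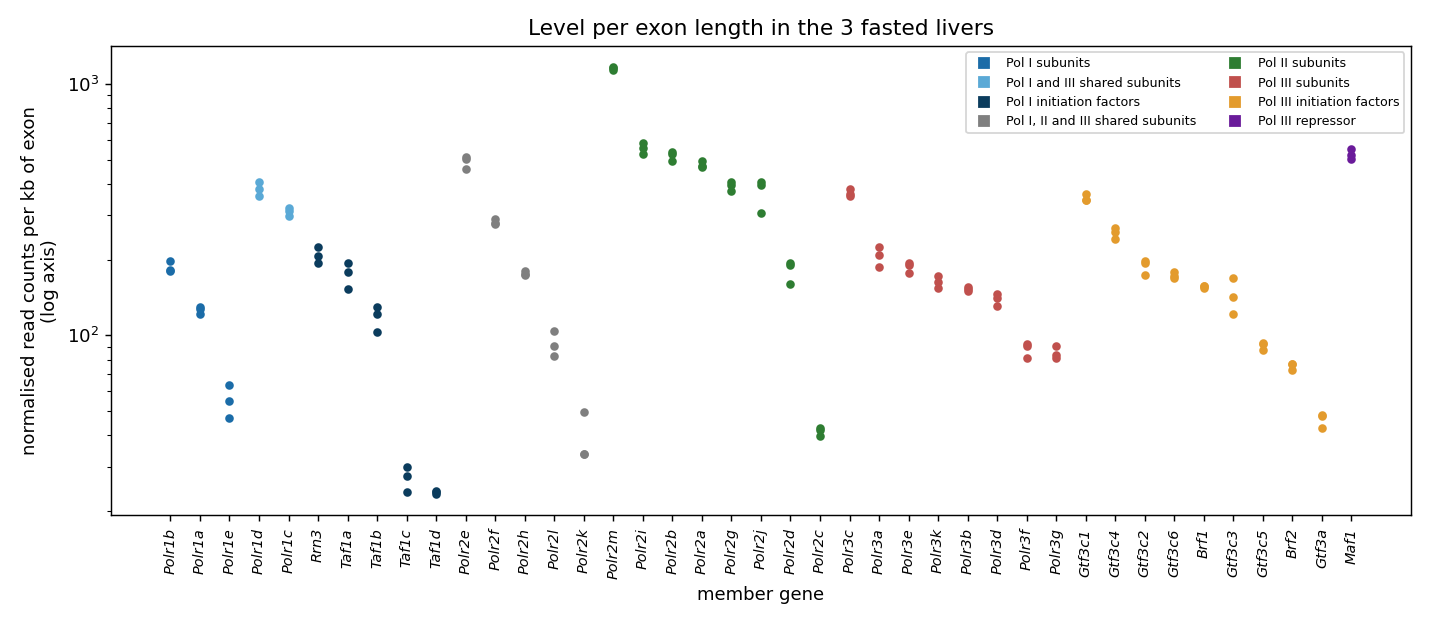
Level of 41 members in the 3 fasted livers, in normalised read counts per kb of exon on a log axis, with members on the horizontal axis ordered by role and coloured by it. Each point is 1 library. Polr2m lies highest at 1152 on average and Taf1d lowest at 23.7.

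Part of the machinery was higher in refed than in fasted livers, and Maf1 was lower. This comparison cannot tell refeeding from time. Of the 8 polymerase II subunits, 0, 0, 1 and 1 were called at the 4 times. With so few genes, that does not set them apart from all genes. A member is said to have risen or fallen where its adjusted p (limma, Benjamini-Hochberg over all 15932 genes) was under 0.05 against the fasted group. After 30 min, 2 of 42 members passed (1 rose and 1 fell), with 1.63% of all genes called. After 60 min, 9 passed (8 rose, 1 fell), against a background of 11%, and after 120 min 17 passed (15 rose, 2 fell), against 14.1%. After 240 min, 14 passed (13 rose, 1 fell), against 24.3%. The share of members called was thus 21.4%, 40.5% and 33.3% at 60, 120 and 240 min. The background of rises alone was 1.31%, 7.26%, 7.95% and 12.9% of all genes at the 4 times, and that of falls 0.326%, 3.75%, 6.13% and 11.4%.

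The median log2 difference of the 42 members was -0.01, 0.12, 0.16 and 0.16 at the 4 times, where the median over all genes lay between -0.02 and 0.00. The 3 refed and 3 fasted libraries did not overlap for 14, 18, 25 and 20 members, against 21.9%, 27.7%, 36.0% and 43.2% of all genes. In all, 20 of 42 members were called at 1 or more times and 22 at none, where 31.2% of all genes were called at 1 or more times. Maf1 alone was called at all 4 times, 6 members at 3 times, 7 at 2 times and 6 at 1 time. The count at 120 min depended on single libraries: leaving out replicate 2 or 3 of the fasted livers gave 9 or 11, and leaving out replicate 2 or 3 of the refed livers gave 10 or 11.

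**Figure D2:**
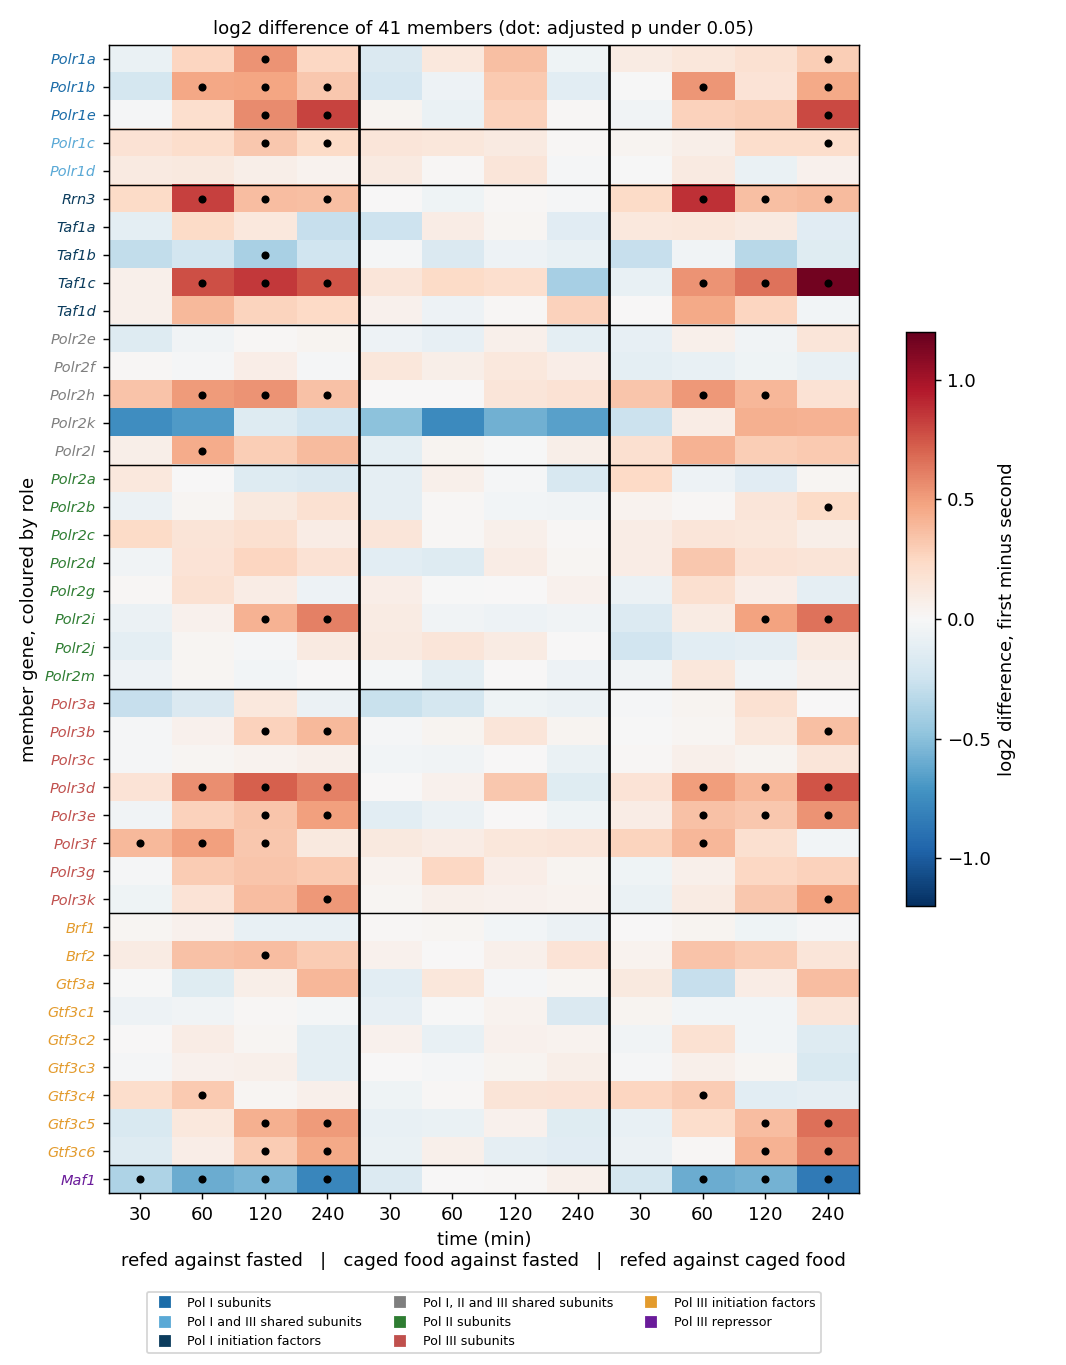
Log2 differences of 41 members (vertical axis, grouped and coloured by role) at 30, 60, 120 and 240 min (horizontal axis) in 3 blocks of columns, with the refed and the caged food livers each set against the fasted ones and then against each other. Red is higher and blue lower in the first group, and dots mark an adjusted p under 0.05: 2, 9, 17 and 14 dots in the refed columns against fasted, and 0 in each caged food column.

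Maf1 (ENSMUSG00000022553, chromosome 15, 76351294 to 76354380, plus strand of GRCm38) fell throughout. The fasted livers held 1211, 1263 and 1331 normalised read counts. The refed livers held 1057, 934 and 946 at 30 min, 881, 797 and 844 at 60 min, 829, 821 and 947 at 120 min, and 668, 810 and 735 at 240 min. Every refed library lay below every fasted one. The differences were -0.37 ± 0.08 (log2 ± SE from limma, as below; adjusted p = 0.0108), -0.59 ± 0.08 (1.61e-05), -0.55 ± 0.08 (3.29e-05) and -0.78 ± 0.08 (1.58e-07). The call at 30 min was lost without fasted replicate 3 (adjusted p = 0.088), refed replicate 2 (0.0869) or refed replicate 3 (0.0506), and the calls at 60 and 120 min were lost under none of the settings tried.

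From 60 min on, caged food livers did not follow this fall. Their Maf1 values were 1129, 1121 and 1146 at 30 min, 1165, 1315 and 1332 at 60 min, 1267, 1317 and 1260 at 120 min, and 1292, 1304 and 1384 at 240 min. The caged food libraries of 30 min all lay below the fasted ones, with a difference of -0.16 that did not pass. The later differences from fasted were 0.001, 0.015 and 0.065. All 12 caged food values exceed all 12 refed values, whose highest is 1057. Refed livers were lower than caged food livers by -0.59 ± 0.08 at 60 min (adjusted p = 1.52e-05), -0.57 ± 0.08 at 120 min (2.87e-05) and -0.85 ± 0.08 at 240 min (4.46e-08), whereas -0.21 ± 0.08 at 30 min did not pass. Both libraries with conflicting labels sat with the group of their title, at 735 in refed replicate 3 and 1292 in caged food replicate 1. Without them the difference at 240 min was -0.87 (adjusted p = 3.11e-06).

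Among the initiation factors of polymerase I, Rrn3 and Taf1c rose. Rrn3 (ENSMUSG00000022682, chromosome 16, 13780708 to 13814839, plus strand) held 965, 889 and 839 normalised read counts in fasted livers and 1507, 1562 and 1695 after 60 min of refeeding. It stood at 1021, 1176 and 969 after 30 min, at 1069, 1337 and 1096 after 120 min, and at 1119, 1163 and 1172 after 240 min. The 3 libraries of 60 min thus lie above every other library of the study, of which the highest held 1337. The difference from fasted was 0.82 ± 0.11 at 60 min (adjusted p = 1.27e-05), 0.37 ± 0.11 at 120 min (0.0188) and 0.36 ± 0.11 at 240 min (0.0143). From 60 to 240 min of refeeding Rrn3 fell (-0.46 ± 0.11, adjusted p = 0.00513). Caged food livers held 870 ± 106 at 60 min and 888 to 909 on average at the other times, and refed livers exceeded them by 0.87 ± 0.11 at 60 min (adjusted p = 6.35e-06). The call at 120 min against fasted was lost without fasted replicate 2 (0.0587), fasted replicate 3 (0.0875) or refed replicate 2 (0.129), and that at 240 min without fasted replicate 3 (0.0702). Against caged food livers of 240 min Rrn3 passed (0.38 ± 0.11, 0.00975), and no longer did without the libraries of conflicting labels (0.111).

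Taf1c (ENSMUSG00000031832, chromosome 8, 119597871 to 119605222, minus strand) encodes a subunit of SL1, the complex that places polymerase I on the ribosomal DNA promoter. Fasted livers held 83, 96 and 104 normalised read counts, and refed livers 79, 96 and 123 at 30 min, 179, 164 and 143 at 60 min, 171, 158 and 182 at 120 min, and 137, 169 and 174 at 240 min. From 60 min on, no refed library overlapped the fasted ones. The differences were 0.77 ± 0.17 (adjusted p = 0.00337), 0.85 ± 0.17 (0.00129) and 0.75 ± 0.17 (0.00206). At 240 min the caged food livers were low (60, 81 and 73), and the difference from refed livers was 1.16 ± 0.17 (adjusted p = 2.05e-05), or 0.975 (0.00186) without the libraries of conflicting labels. The shallowest libraries were all of 240 min: caged food replicates 3 and 2 (an estimated 25.6 and 31.2 M reads) and refed replicate 3 (28.9 M). Of the exon bases of Taf1c, 16.7% overlap Dnaaf1 on the opposite strand. The sources used here do not state whether counting used strand, so reads of the pair may not be separable.

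Of the other SL1 subunits, Taf1b fell at 120 min, from 271, 340 and 319 to 267, 207 and 237 normalised read counts (-0.39 ± 0.13, adjusted p = 0.0397), a call lost under 7 settings. Taf1a and Taf1d were not called at any time against fasted livers (-0.27 to 0.39). The differences of Taf1d were 0.06, 0.39, 0.27 and 0.24 at the 4 times, above 0 as those of Taf1c were from 60 min on, and differences between subunits were not tested. Taf1a went from 569, 426 and 494 at 60 min of refeeding to 316, 385 and 343 at 240 min, which was lower (-0.51 ± 0.13, adjusted p = 0.0133), a call lost without replicate 1 of either group (0.0702 and 0.078). At 120 min, then, 2 of the 5 polymerase I initiation factors had risen and 1 had fallen, where 7.95% of all genes had risen and 6.13% had fallen.

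All 3 members that are subunits of polymerase I alone rose at 120 min, where 7.95% of all genes did. Subunit genes outside the naming rule, such as Znrd1, are counted below with the polymerase I neighbours. Polr1a, the catalytic largest subunit, went from 1516, 1540 and 1440 to 2246, 2176 and 2128 normalised read counts (0.54 ± 0.10, adjusted p = 4.83e-04). Polr1b, the second-largest subunit, held 1058, 1146 and 1045 in fasted livers and 1699, 1453 and 1352 already at 60 min (0.47 ± 0.11, adjusted p = 0.00431). At 120 min it stood at 1399, 1638 and 1484 (0.47 ± 0.11, 0.00309), and at 240 min at 1386, 1278 and 1411 (0.33 ± 0.11, 0.0257). Neither gene overlapped the fasted libraries at 120 min. The call of Polr1b at 240 min was lost under 7 settings, among them leaving out the libraries with conflicting labels (0.0909).

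Polr1e, which encodes a subunit of the polymerase I dimer that aids initiation, rose later. It held 183, 213 and 247 in fasted livers, 283, 348 and 322 at 120 min (0.57 ± 0.17, adjusted p = 0.0252) and 435, 372 and 322 at 240 min (0.81 ± 0.17, 0.00109). At 60 min only replicate 1 was high, with 336 against 211 and 205. Polr1c, shared by polymerases I and III, rose from 681, 712 and 734 to 893, 887 and 876 at 120 min (0.32 ± 0.08, 0.00715) and stood at 911, 862 and 734 at 240 min (0.23 ± 0.08, 0.0342). Its partner Polr1d was not called at any time (0.04 to 0.12), so the pair did not share a call, and the difference between them was not tested.

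In caged food livers Polr1a, Polr1b and Polr1e stood above their fasted means at 120 min without passing the test. At 120 min of caged food, Polr1a held 2081, 1765 and 1925 normalised read counts, Polr1b 1495, 1127 and 1438, and Polr1e 252, 260 and 262. The Polr1a and Polr1e libraries lay above all fasted ones, while the lowest Polr1b library overlapped them. The differences from fasted were 0.36 ± 0.10 (adjusted p = 0.248) for Polr1a, 0.31 ± 0.11 (0.401) for Polr1b and 0.28 for Polr1e, and none passed. With array weights, which let limma count noisier libraries less, Polr1a (0.39, adjusted p = 0.0256) and the polymerase III subunit gene Polr3d (0.35, 0.0494) passed. Refed against caged food livers of 120 min, 0 of these 3 members passed (median 0.19), where 11.3% of all genes passed. The subunit gene Znrd1, outside the naming rule, did pass there (0.36 ± 0.11, adjusted p = 0.0403). At 240 min 3 of the 3 members passed (median 0.45). Polr1a did not without the libraries of conflicting labels (0.15, adjusted p = 0.371), and its call (0.30, 0.027) was lost under 7 settings. The comparisons against fasted livers share the fasted libraries.

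**Figure D3:**
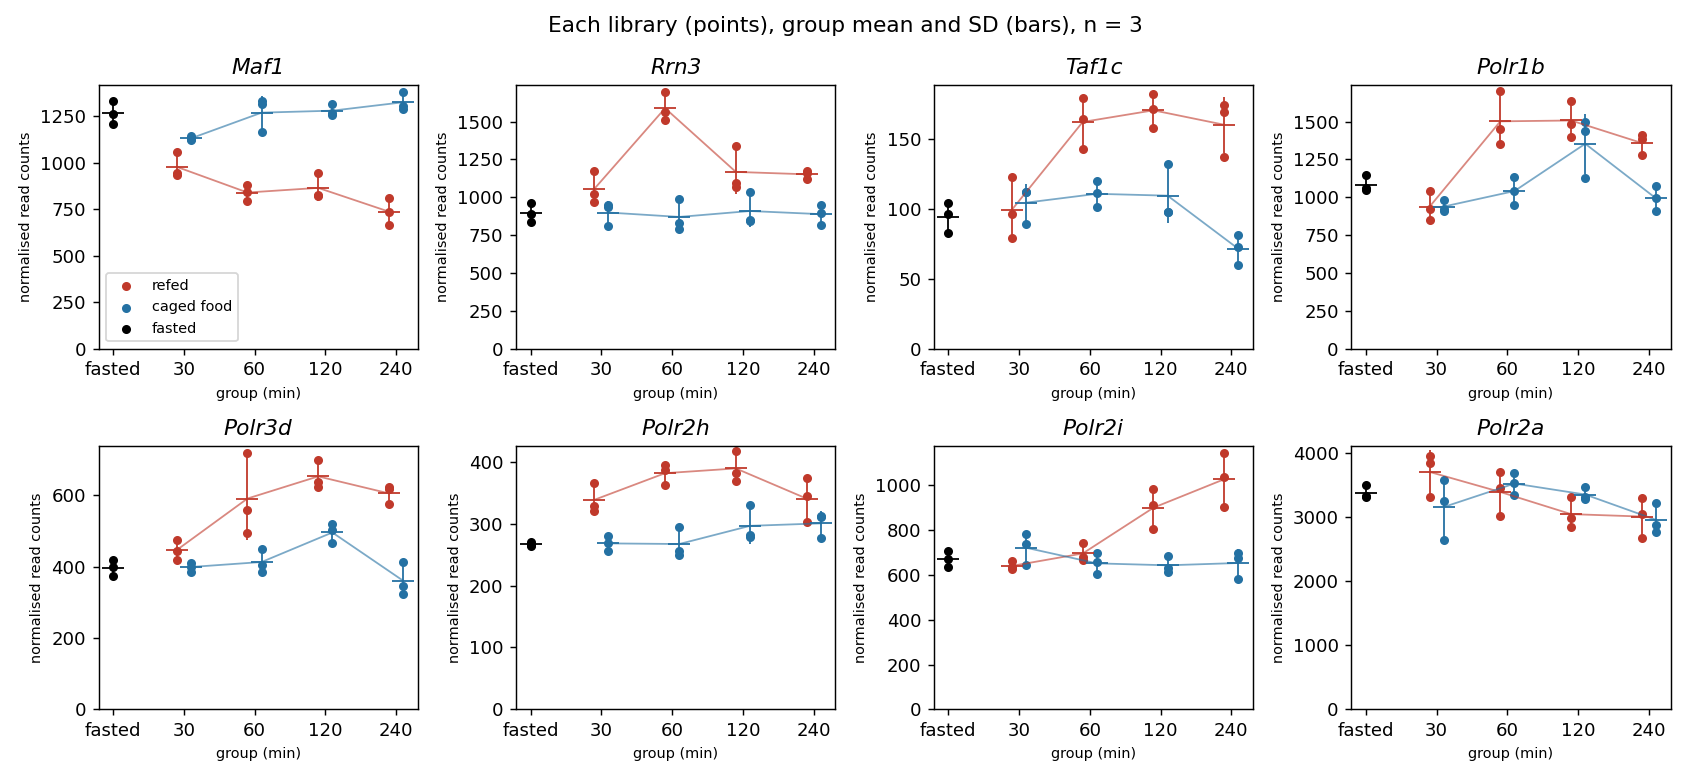
Normalised read counts of 8 members by group, with 1 point per library and bars for the mean ± SD of 3 libraries, at the fasted state and at 30, 60, 120 and 240 min of refeeding (red) or caged food (blue). Maf1 falls with refeeding from a mean of 1268 to 738, Rrn3 is highest at 60 min, Polr2i climbs to 1026 at 240 min, and Polr2a lies below its fasted values in the libraries of 240 min, both refed (2673 to 3300) and caged food (2763 to 3220), with no call.

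Among the 9 members that are polymerase III subunits, 1, 2, 4 and 4 rose at the 4 times and 0 fell. Over all genes, 1.31%, 7.26%, 7.95% and 12.9% rose and 0.326%, 3.75%, 6.13% and 11.4% fell. The subunit gene Crcp, outside the naming rule, fell at 120 min (-0.32 ± 0.09, adjusted p = 0.0195) and at 240 min (-0.53 ± 0.09, 1.63e-04). Polr3d, of the dimer that serves termination and reinitiation, held 373, 417 and 400 normalised read counts in fasted livers. It reached 718, 559 and 494 at 60 min, 622, 697 and 638 at 120 min, and 618, 622 and 574 at 240 min. No refed library overlapped a fasted one, and the differences were 0.56 ± 0.11 (adjusted p = 0.00144), 0.72 ± 0.11 (9.63e-05) and 0.61 ± 0.11 (2.78e-04). Against caged food livers they were 0.50, 0.40 and 0.75, all called (0.00397, 0.0204 and 2.08e-05), that at 120 min not without refed replicate 2 (0.0983), caged food replicate 2 (0.051) or caged food replicate 3 (0.0846). Its partner Polr3e went from 957, 888 and 970 to 1100, 1225 and 1213 at 120 min (0.33 ± 0.09, 0.0187) and to 1444, 1253 and 1272 at 240 min (0.49 ± 0.09, 3.80e-04).

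Polr3b, the second-largest subunit, rose from 819, 806 and 787 to 982, 941 and 999 at 120 min (0.28 ± 0.08, adjusted p = 0.0201) and 1163, 986 and 1022 at 240 min (0.39 ± 0.08, 7.59e-04). The call at 120 min was lost without fasted replicate 2 (0.0553) or 3 (0.0711) and without refed replicate 1 (0.0555) or 3 (0.0751). The largest subunit Polr3a held 1092, 1309 and 1219 in fasted livers and 972, 1042 and 969 after 30 min of refeeding (-0.28 ± 0.08, 0.0959), and 964, 1125 and 930 after 30 min of caged food (-0.26 ± 0.08, 0.414). It was not called at any time in the design as fitted, and with array weights it passed at 30 min of refeeding (-0.28, 0.0225). So the catalytic core pair of polymerase III did not share a call, and the difference between them was not tested.

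Polr3f, part of the initiation subcomplex, was the early riser among these subunits. It held 712, 627 and 699 in fasted livers, 844, 939 and 877 at 30 min (0.39 ± 0.10, adjusted p = 0.0428), 873, 918 and 1075 at 60 min (0.49 ± 0.10, 0.00149) and 866, 877 and 808 at 120 min (0.33 ± 0.10, 0.0269). At 240 min it was back at 774, 692 and 741. The call at 30 min was lost under 10 of the settings tried, including every replicate left out. The fall from 60 to 240 min (-0.37 ± 0.10, 0.0133) was lost in the fit of only these groups (0.0777), without refed 60 min replicate 3 (0.0911) and without refed 240 min replicate 2 (0.0618). Polr3k, which takes part in RNA cleavage at termination, was called at 240 min alone, with 737, 807 and 658 against 537, 508 and 482 in fasted livers (0.52 ± 0.13, 0.00468). Polr3c and Polr3g were not called at any time against fasted livers. For these and Polr3a the differences lay between -0.28 and 0.33.

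Of the polymerase III initiation factors, 0, 1, 3 and 2 of 9 rose at the 4 times, where 1.31%, 7.26%, 7.95% and 12.9% of all genes did. The TFIIIC complex, which recognises the internal promoters of transfer RNA genes, had calls in some subunits and none in others. Differences between its subunits were not tested. Gtf3c5 held 397, 425 and 420 in fasted livers, 566, 514 and 589 at 120 min (0.42 ± 0.12, adjusted p = 0.0144) and 632, 587 and 558 at 240 min (0.51 ± 0.12, 0.00194). Gtf3c6 held 472, 482 and 499, then 578, 658 and 563 (0.31 ± 0.10, 0.0352), then 718, 650 and 629 (0.46 ± 0.10, 0.00114). Neither overlapped the fasted libraries at these times. The call of Gtf3c5 at 120 min was lost without fasted replicate 1 (0.0585) or refed replicate 3 (0.0681). Gtf3c4 rose earlier and briefly, from 1930, 1746 and 1861 to 2409, 2191 and 2298 at 60 min (0.32 ± 0.07, 0.00531), and was back at 1938, 1781 and 1898 at 120 min.

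The remaining initiation factors were mostly without a call. Gtf3c1, the large DNA-binding subunit of TFIIIC, differed from fasted livers by between -0.06 and 0.01 at the refed times, and Gtf3c2 and Gtf3c3 were not called against them either. Brf1, the TFIIIB subunit used at transfer RNA genes, held 1228, 1206 and 1227 in fasted livers and between 1081 and 1336 in all 27 libraries. Its differences at the 4 refed times were 0.02, 0.05, -0.09 and -0.09, with adjusted p from 0.37 to 0.94. Brf2, its counterpart at the U6 type of promoter, went from 248, 248 and 234 to 277, 339 and 332 at 120 min (0.37 ± 0.12, 0.0423), a call lost under 9 settings. Gtf3a, which is needed for 5S RNA genes, stood at 174, 138 and 157 at 240 min against 122, 109 and 123 in fasted livers (0.40 ± 0.16, 0.0656). Of its exon bases 59.1% overlap Mtif3 on the opposite strand, and 38.9% of those of Gtf3c2 overlap Gm29609 on the same strand, so their reads may not be separable.

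Of the 8 polymerase II subunits, 0, 0, 1 and 1 were called at the 4 times. Polr2a held 3319, 3493 and 3302 normalised read counts in fasted livers, and 3313, 3838 and 3945, then 3448, 3701 and 3009, then 3306, 2837 and 2981, then 2673, 3300 and 3038 with refeeding. These values overlap the fasted range at 30, 60 and 120 min and lie just below it at 240 min, where the highest (3300) nearly meets the lowest fasted value (3302). The adjusted p was 0.72, 0.996, 0.368 and 0.242. Polr2b, the second-largest subunit, stood at 2840, 2460 and 2971 at 240 min against 2305, 2503 and 2453 (0.18 ± 0.07, 0.0707). It passed against caged food livers of 240 min (0.23 ± 0.07, 0.0237), and no longer did without the libraries of conflicting labels (0.294). Polr2c, Polr2d, Polr2g, Polr2j and Polr2m were not called, and the differences of the 7 uncalled subunits lay between -0.17 and 0.26.

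The exception was Polr2i (ENSMUSG00000019738, chromosome 7, 30231948 to 30233390, plus strand), a small subunit that bears on start site choice and fidelity. It held 637, 672 and 705 in fasted livers, 624, 662 and 633 at 30 min, 678, 742 and 665 at 60 min, 802, 982 and 913 at 120 min, and 1143, 1034 and 901 at 240 min. The libraries of 120 and 240 min all lay above the fasted ones. The differences were 0.42 ± 0.10 at 120 min (adjusted p = 0.00525) and 0.61 ± 0.10 at 240 min (8.16e-05). In caged food livers Polr2i held 612, 685 and 630 at 120 min and 699, 677 and 582 at 240 min. Of its exon bases, 26.8% overlap Tbcb on the opposite strand, and Tbcb rose at 240 min too (0.51 ± 0.13, 0.0051). The part of overlapping reads in the rise of Polr2i was not tested.

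Some of the subunits common to all 3 polymerases were called and others were not, with differences between them not tested. Polr2h held 263, 265 and 271 in fasted livers, 329, 365 and 321 at 30 min, 363, 386 and 395 at 60 min, 381, 417 and 369 at 120 min, and 374, 303 and 344 at 240 min. All 12 refed libraries exceeded the fasted ones, with calls at 60 min (0.52 ± 0.10, adjusted p = 9.11e-04), 120 min (0.54 ± 0.10, 4.77e-04) and 240 min (0.35 ± 0.10, 0.0112). Polr2l stood at 212, 203 and 210 at 60 min against 137, 172 and 150 (0.45 ± 0.15), which passed with an adjusted p just under 0.05 and was lost under 9 settings. Polr2e, Polr2f and Polr2k were not called, the last with values from 6 to 31 that leave wide errors (SE 0.38).

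Caged food livers had no member called against fasted livers at any time. At 30, 60, 120 and 240 min, 0 of 42 passed in limma, with 2, 1, 3 and 3 at an unadjusted p under 0.05, and 0.0126%, 0.22%, 0.0377% and 0.0% of all genes called. By direction, 0.138% of all genes were higher and 0.0816% lower at 60 min, and 0.0126% higher and 0.0251% lower at 120 min. Non-overlapping libraries were found for 6, 2, 9 and 11 members, against 12.7%, 14.7%, 16.1% and 13.8% of all genes. With array weights the count at 120 min was 2 (Polr1a and Polr3d). Members of the machinery were thus not separated from fasted levels by caged food in this design, which does not show that they were equal.

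Set directly against each other, refed and caged food livers differed in 0, 9, 9 and 15 of 42 members at 30, 60, 120 and 240 min, against a background of 0.276%, 10.9%, 11.3% and 27%. At 30 min 7 members had an unadjusted p under 0.05. The background of higher calls was 0.207%, 6.73%, 5.98% and 14.6% of all genes at the 4 times, and that of lower calls 0.069%, 4.18%, 5.3% and 12.4%. Libraries did not overlap for 7, 17, 19 and 23 members, against 11.7%, 21.9%, 29.7% and 41.7% of all genes. At each later time Maf1 was the only member lower in refed livers, with 8, 8 and 14 higher. At 60 min these were Rrn3, Polr2h, Polr1b, Polr3d, Gtf3c4, Polr3f, Polr3e and Taf1c, and at 120 min Polr2i, Gtf3c6, Polr2h, Taf1c, Polr3d, Polr3e, Rrn3 and Gtf3c5. The count at 120 min fell to 4 without caged food replicate 2 and to 5 without refed replicate 2 or caged food replicate 3. Maf1, Polr2i and Gtf3c6 were not lost at 120 min when any single library was left out, and each of the others was lost for 1 or more of them. In the fit of only these 2 groups at 60 min, Rrn3 (0.00755) and Maf1 (0.0208) alone passed. At 240 min, 12 members passed without the libraries of conflicting labels and 0 with these grouped by the treatment label.

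Over the mean of the 4 times, 21 members differed between refed and caged food livers, 19 higher and 2 lower, where 31.3% of all genes did (17.3% higher and 14.1% lower). Maf1 (-0.56 ± 0.04, adjusted p = 3.73e-10), Rrn3 (0.46 ± 0.05, 4.83e-07), Polr3d (0.45 ± 0.06, 1.18e-06) and Polr2h (0.36 ± 0.05, 5.91e-06) had the lowest p. The other member that was lower was Taf1b (-0.20 ± 0.06, 0.0172). Polr2a (the largest polymerase II subunit), Polr3a, Brf1 and Gtf3c1 did not pass. Beside these calls, endothelial markers summed to between 13833 and 14452 in refed livers of 240 min and between 15838 and 16486 in caged food livers, and the stellate cell markers to between 10964 and 14054 and between 14690 and 16911. At 120 min endothelial sums also stood apart, at 14831 to 15625 in refed and 17296 to 20023 in caged food livers. So did cholangiocyte sums (1439 to 1840 and 986 to 1431) and, narrowly, hepatocyte sums (3917245 to 4428839 and 4448105 to 5327212), while the other marker sums overlapped. The part of these markers in the differences at 120 and 240 min was not tested.

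Some members were higher and others lower at 240 than at 60 min of refeeding. Between 60 and 240 min of refeeding 11 members differed, 6 higher and 5 lower at 240 min, where 12.5% of all genes were called (6.27% higher and 6.23% lower). Higher at 240 min were Polr2i (0.56 ± 0.10, adjusted p = 5.53e-04), Polr3b (0.34 ± 0.08, 0.00579), Gtf3c6 (0.38 ± 0.10, 0.0105), Polr1e (0.61 ± 0.17, 0.0188), Gtf3a (0.54 ± 0.16, 0.0234) and Gtf3c5 (0.39 ± 0.12, 0.0285). Lower were Rrn3, Polr3f, Taf1a, Gtf3c4 (-0.26 ± 0.07, 0.023) and Gtf3c2 (-0.21 ± 0.07, 0.0388). Of these members, Gtf3a, Taf1a and Gtf3c2 were not called against fasted livers at any time. Gtf3c4 and Gtf3c5, both of TFIIIC, were called in opposite directions, and the difference between them was not tested. The count depended on single libraries and was 3 without refed 240 min replicate 1, 5 without refed 60 min replicate 3 and 7 without refed 60 min replicate 1. In the fit of only these groups, Rrn3 (0.0184) and Polr2i (0.0241) alone passed.

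**Figure D4:**
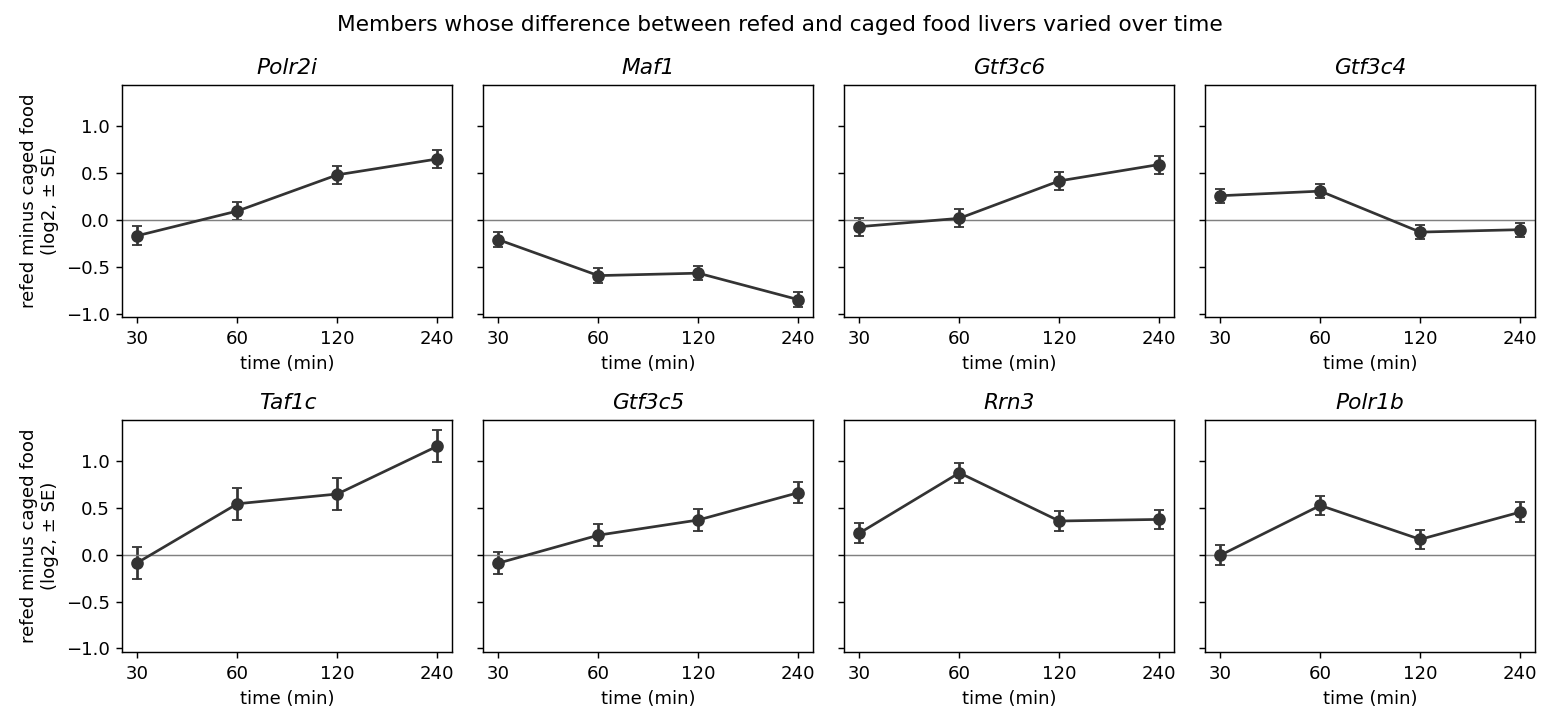
Difference between refed and caged food livers (log2 ± SE from limma, vertical axis) at 30, 60, 120 and 240 min (horizontal axis) for the 8 members whose difference varied over time by the F test, which called 9.97% of all genes. Rrn3 is highest at 60 min (0.87), Gtf3c4 is above 0 at 30 and 60 min and below it later, and Polr2i, Gtf3c5, Gtf3c6 and Taf1c are highest at 240 min.

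Genes that work beside these members, and fall outside the naming rule, were counted in the same comparisons. Over all genes, 1.31%, 7.26%, 7.95% and 12.9% had risen at the 4 refed times and 0.326%, 3.75%, 6.13% and 11.4% had fallen. Of 6 tested polymerase I neighbours, 0, 1, 3 and 0 had risen at 30, 60, 120 and 240 min of refeeding against fasted livers, and 1 had fallen at 240 min. Those risen at 120 min were the terminator factor gene Ttf1 (0.59 ± 0.09, adjusted p = 5.60e-05), the ribosomal DNA architecture factor gene Ubtf (0.23 ± 0.06, 0.00574) and the small subunit gene Znrd1 (0.45 ± 0.11, 0.0086). The one fallen at 240 min was Tbp (-0.25 ± 0.09, 0.0487), whose protein serves all 3 polymerases and which is counted in each of the first 3 lists.

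Of 11 polymerase III neighbours, 0, 1, 1 and 3 had risen and 0, 0, 1 and 2 had fallen. At 240 min Snapc1 (0.42 ± 0.13, adjusted p = 0.0237) and Snapc3 (0.35 ± 0.12, 0.0302), of the complex that recognises U6-type promoters, and the TFIIIB subunit gene Bdp1 (0.31 ± 0.11, 0.0418) were higher, and the subunit gene Crcp was lower (-0.53 ± 0.09, 1.63e-04). Of 29 tested general transcription factor genes of polymerase II, 0, 4, 6 and 7 had risen and 0, 1, 0 and 2 had fallen. At 240 min both TFIIF subunit genes Gtf2f1 (0.73 ± 0.09, 4.48e-06) and Gtf2f2 (0.56 ± 0.11, 4.30e-04) and Taf2 of TFIID (0.43 ± 0.08, 2.42e-04) were higher, and Taf8 of TFIID was lower (-0.48 ± 0.10, 0.00101).

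Of 16 assembly and import factors of the polymerases, 0, 2, 4 and 6 had risen and 0, 0, 1 and 3 had fallen. At 240 min Gpn1 (0.46 ± 0.09, adjusted p = 3.35e-04), Ruvbl2 (0.51 ± 0.10, 4.87e-04) and Ruvbl1 (0.50 ± 0.11, 0.00138) were higher, and Uri1 (-0.33 ± 0.08, 0.00473), Pih1d1 (-0.33 ± 0.08, 0.00524) and Gpn3 (-0.35 ± 0.11, 0.0175) were lower. At 240 min 12.9% of all genes had risen and 11.4% had fallen. Each list likewise had calls in both directions at that time, apart from the polymerase I neighbours, where the only call was the fall of Tbp. In caged food livers 0 genes of these lists passed against fasted livers at any time, where at most 0.22% of all genes did.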

How the data were processed

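Liver messenger RNA of 27 libraries (stranded library kit, per the labels' protocols) was aligned with STAR 2.4.0a to mm10 (GRCm38) and counted per gene with featureCounts 1.4.5-p1, per the submitters' processing notes. The deposited table holds a score per gene and library, namely normalised read counts that the authors gave as whole numbers. How they were scaled, and whether counting used strand, are not given in the sources used here. Rounding and scaling leave no counts for a count model. Depth was estimated from the spacing of low values. Coordinates, exon lengths and overlaps are from GENCODE M21 of GRCm38 and promoter windows from RefSeq.

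Values were taken as log2(value + 1) for genes at 10 or more in 3 or more libraries. limma 3.58.1 in R 4.3.3, with a trend, was fitted to the 9 group means of the titles, so the groups share 1 spread, with Benjamini-Hochberg adjustment over the 15932 genes of each comparison. The change of the refed to caged food difference over time was tested with an F test. The fit and the depth estimate were tested on simulated data. Tables and figures used Python 3.11.15, numpy 2.4.6, pandas 2.3.3 and matplotlib 3.10.9. Replicate numbers were not taken to pair libraries: the residuals of 108 same-numbered pairs from different groups had a mean correlation of -0.00944, and 8 of the 27 libraries were closest to one of their own number.

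The members and lists were chosen with earlier results of these data known. Named with values in each comparison were called members, at most 8 of lowest p in each direction, and a panel of 12 members; of the neighbouring lists, at most 3 genes in each direction at the time with most calls. Other members, Tbcb and Polr3d with array weights were named after their values were seen. Results were recomputed after quantile normalization, with array weights, with a replicate block, with a pseudocount of 5, without the filter, from the compared groups alone, and with each replicate dropped. They were also recomputed with both libraries of contradictory labels dropped or moved to the group of their treatment label, and without 3 libraries that stood apart: replicate 1 of refed 30 min, replicate 1 of caged food 30 min, and replicate 2 of caged food 60 min. A single member enters the counts and is not reported here by itself, so the figures of all members draw 41.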

Additional observations from a re-analysis of the deposited data

Results flagged for a closer look

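The gap separating refed from caged food livers itself varied over the 4 times for 8 of 42 members (limma F test, adjusted over all genes), where 9.97% of all genes did. Polr2i had the lowest value (adjusted p = 0.00133), with differences of -0.17, 0.10, 0.48 and 0.65 (log2) at 30, 60, 120 and 240 min. Maf1 followed (0.00359), with -0.21, -0.59, -0.57 and -0.85, and then the TFIIIC subunit genes Gtf3c6 (0.00445), with -0.07, 0.02, 0.42 and 0.59, and Gtf3c4 (0.00653), with 0.26, 0.31, -0.13 and -0.10. Taf1c of the polymerase I factor SL1 had an adjusted p of 0.00983 and differences of -0.09, 0.54, 0.65 and 1.16. The values of Gtf3c5 were 0.0201 and -0.09, 0.21, 0.37 and 0.66, those of Rrn3 0.0227 and 0.23, 0.87, 0.36 and 0.38, and those of Polr1b 0.0496 and -0.01, 0.53, 0.16 and 0.45. Gtf3c4 is thus the member whose difference lay above 0 at the early and below 0 at the late times. Polr2i, Gtf3c6, Maf1 and Gtf3c4 also passed without the 3 libraries that stood apart (adjusted p = 0.00222, 0.00603, 0.0256 and 0.0369).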

How the results depend on the processing

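Of 90 calls of named members, 27 were kept under every setting run for their comparison and 63 were lost under 1 or more. Most counts of called members stayed within 1.5 times; the exceptions follow. For refed 30 min against fasted livers (2) the count was 1 with quantile normalization, 1 without the filter, 1 with a replicate block, 4 with array weights, 1 without the 3 libraries that stood apart, and 0 to 1 with single replicates left out. Array weights gave 2 for caged food 120 min against fasted and 14 for the F test of change over time (8), which was 4 without the libraries that stood apart. Fitting only the groups compared gave 2 for refed 60 min against caged food (9) and 2 for refed 240 min against refed 60 min (11). Grouping the 2 libraries by the treatment label gave 0 for refed 240 min against fasted (14) and against caged food (15), 7 for the mean of 4 times (21), 2 for refed 240 against 60 min and 0 for the F test, and turned the sign of Polr1a (-0.091) and Polr2b (-0.042) in refed against caged food livers of 240 min. Without these libraries the counts were 13 against fasted and 12 against caged food. Leaving out single replicates gave 9 to 15 for refed 120 min against fasted (17), 4 to 8 for refed 120 min against caged food (9), 3 to 10 for refed 240 against 60 min, and 6 to 10 for the F test. The cause of these shifts was not tested. A replicate block changed no other count of called members beyond 1.5 times: it gave 9, 15 and 14 for refed livers of 60, 120 and 240 min against fasted. Depth limits Polr2k most, and with 3 libraries a group small differences could not be detected.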
